A study of Mus musculus with 6 samples.

Results

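TGF-beta, activin and BMP signalling was followed through 46 genes in the kidneys of mice given adenine and potassium oxonate, a model of hyperuricemia-related chronic kidney disease. The genes were taken by symbol and cover the ligands, the proteins that hold or block them, the receptors, the SMAD proteins and the Id genes. All 46 were among the 55450 genes listed and among the 16592 with enough counts to be tested, and all 46 are protein coding. RNA from whole kidney was sequenced in 3 day-0 and 3 day-21 mice. Both groups were wild-type male C57BL/6J mice bought at 7 weeks of age. Day-21 mice received adenine at 0.16 g/kg together with potassium oxonate at 2.4 g/kg each day by gavage for 21 days, and day-0 mice are labelled as controls with 20% PEG. Each library came from its own mouse, so the spread in every test is that between 3 mice of a group. The study's methods describe mice killed on the day that names their group, which would make day-21 mice older, with more days of gavage. How long PEG was given is not stated in the sources used here, and treatment cannot be told apart from these differences between the groups.

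TGF-beta, activins and BMPs are secreted dimers that bind pairs of type I and type II serine/threonine kinase receptors. TGF-beta and activin receptors act mainly through SMAD2 and SMAD3, BMP receptors through SMAD1, SMAD5 and SMAD9, and SMAD4 is the shared partner. In kidney, TGF-beta is best known as a driver of matrix deposition and scarring, and BMP7, made by tubule cells and podocytes, as a factor for nephron development and tubule maintenance.

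Promoter windows from RefSeq on GRCm38.p6 run from 250 bases before the annotated start to 50 after it. Of the members, 33 matched an entry, giving 41 windows. Letters known from SMAD binding were searched on both strands: GGCGCC, the GC-rich box bound by SMAD1 and SMAD5, and CAGAC, the SMAD-binding element, and also CANNTG, the E-box. The motif GGCGCC was in 14 of 41 windows (34.1%) against 11.9% of 32851 promoters, CAGAC was in 19 (46.3%) against 49.6%, and CANNTG was in 22 (53.7%) against 72.3%. Matches of different motifs may overlap, GC content was not matched, and a match in the letters is a description of the window only. Id2 and Id3 are printed because their shares of the Id level lay in opposite directions between the groups, and Tgfb2 and Ltbp2 because they had the largest fold change among the ligands of TGF-beta and among all members, a choice made after their values were seen. Capitals mark GGCGCC, and CAGAC or its reverse complement GTCTG. The windows are chr12:25096043-25096342 (minus strand) for Id2, chr4:136143572-136143871 (plus) for Id3, chr1:186705940-186706239 (minus) for Tgfb2 and chr12:84876442-84876741 (minus) for Ltbp2.
Id2: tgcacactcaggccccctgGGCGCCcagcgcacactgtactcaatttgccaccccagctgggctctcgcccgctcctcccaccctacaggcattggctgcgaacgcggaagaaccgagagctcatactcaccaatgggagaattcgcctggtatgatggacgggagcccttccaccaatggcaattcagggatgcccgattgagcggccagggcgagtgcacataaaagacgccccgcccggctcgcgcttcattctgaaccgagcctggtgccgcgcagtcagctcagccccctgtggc
Id3: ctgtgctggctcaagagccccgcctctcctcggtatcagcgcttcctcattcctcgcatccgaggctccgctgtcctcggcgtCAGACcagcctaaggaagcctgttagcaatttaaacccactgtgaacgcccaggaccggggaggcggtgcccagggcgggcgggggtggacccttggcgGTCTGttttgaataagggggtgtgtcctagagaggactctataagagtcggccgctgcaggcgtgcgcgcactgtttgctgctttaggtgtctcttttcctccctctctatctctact
Tgfb2: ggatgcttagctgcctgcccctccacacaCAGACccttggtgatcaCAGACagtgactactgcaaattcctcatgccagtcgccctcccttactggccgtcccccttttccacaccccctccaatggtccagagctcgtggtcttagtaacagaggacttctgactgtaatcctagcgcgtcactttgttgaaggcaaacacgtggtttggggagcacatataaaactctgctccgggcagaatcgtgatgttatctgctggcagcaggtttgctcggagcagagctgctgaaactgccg
Ltbp2: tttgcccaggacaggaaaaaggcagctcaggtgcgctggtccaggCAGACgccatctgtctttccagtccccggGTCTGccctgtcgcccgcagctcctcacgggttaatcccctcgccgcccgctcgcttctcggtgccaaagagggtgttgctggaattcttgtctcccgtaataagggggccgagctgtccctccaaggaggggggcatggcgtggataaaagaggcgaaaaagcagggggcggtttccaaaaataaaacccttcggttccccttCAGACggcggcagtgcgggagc
Id2 held GGCGCC and no CAGAC, whereas Id3, Tgfb2 and Ltbp2 held CAGAC or GTCTG and no GGCGCC.

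The libraries held 10963849 to 14333311 counts, and the biological coefficient of variation between mice was 16.2%. Marker genes of other cell types differed between the groups. All 6 fibroblast markers, all 6 macrophage markers, all 4 T cell markers, all 3 injured tubule markers and all 4 cycling cell markers were called higher on day 21. Several of these had enough counts to be tested only through day 21 and could hardly be called lower. Among them were Cd3d (6, 3 and 5 counts in controls), Cd2 (6, 11 and 6) and Ccnb1 (5, 5 and 12). All 5 proximal tubule markers were called lower, as were 3 of 5 podocyte, 2 of 3 distal convoluted tubule, 2 of 4 principal cell, 3 of 4 intercalated cell and 2 of 7 endothelial markers. Of the rest, 1 of 3 thick ascending limb markers was called higher and 1 lower, 2 of 4 smooth muscle markers were called higher and 1 lower, and the 2 neutrophil markers tested were called lower. In bulk tissue fewer cells of a type and less RNA per cell cannot be told apart, which applies to each gene described here. Day-0 mouse 1 was above the other controls in the 3 injured tubule markers: Krt20 had 160 counts there against 3 and 5, and Havcr1 had 81 against 27 and 15. In Lcn2, the other marker, it was closer to them, at 75 counts against 82 and 53. Scaled to library size and TMM factor (CPM), these were 7.51 against 6.75 and 5.45.

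On day 21, 16 of the 46 genes (34.8%) were called higher and 2 (4.35%) lower, with 28 not called. A call required a fold above 1.5 and an adjusted p below 0.05, from the quasi-likelihood test of edgeR with p-values adjusted by Benjamini-Hochberg across all 16592 genes. Over all genes, 19.6% were called higher and 15.5% lower, so the share of members called higher was above that of all genes and the share called lower was below it. The members were chosen with earlier results of these data known, so this is a description and not a test of the pathway. The counts by role below are to be read beside the same 2 shares. The groups of 3 mice did not overlap for 25 members (54.3%), near the 57.1% of all genes. The median log2 fold change was 0.41 over the members and 0.03 over all genes. Those called higher were all 3 TGF-beta ligands, Ltbp2, Ltbp3, Tgfbi, Tgfbr1, Tgfbr2, Inhba, Fst, Fstl1, Bmp3, Acvr1, Smad1, Id1 and Id3, and those called lower were Bmp7 and Tgfbr3. Ltbp2 and Inhba had under 10 counts in every control and enough to be tested only through day 21. They could hardly be called lower. Without day-0 mouse 1 the numbers called were 17 higher and 1 lower. The 28 not called ran from -0.56 (Nog) to 0.73 (Grem1) on the log2 scale, and Smad2 and Id2 were among them with an adjusted p under 0.05 at a smaller fold. The calls depend on how libraries are scaled: of all calls, 55.8% were higher with TMM, 53.0% with RLE, 63.0% with the upper quartile and 81.7% with library size alone, where the median of all genes moved to 0.42. Relative to the median of all genes, Bmp7 stood at -0.81 and Tgfbr3 at -0.62 with TMM and with library size alone.

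**Figure D1:**
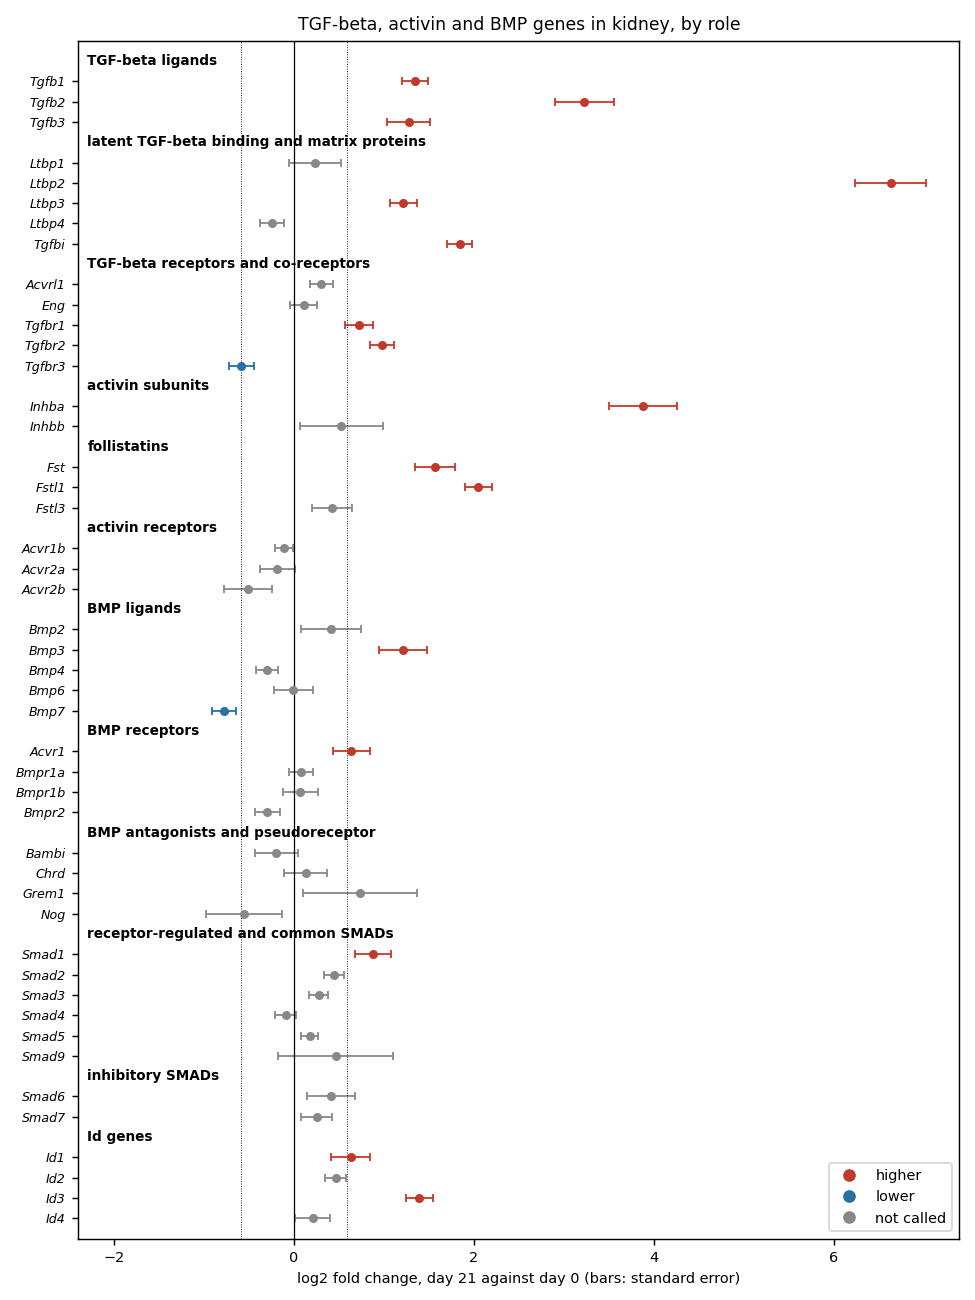
Log2 fold change (x axis, day 21 against day 0, with standard errors) for each of the 46 genes, grouped by role, with dotted lines at a fold of 1.5 in either direction. The 16 genes called higher are red, the 2 called lower are blue, and Ltbp2, Inhba and Tgfb2 lie farthest to the right.

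**Figure D2:**
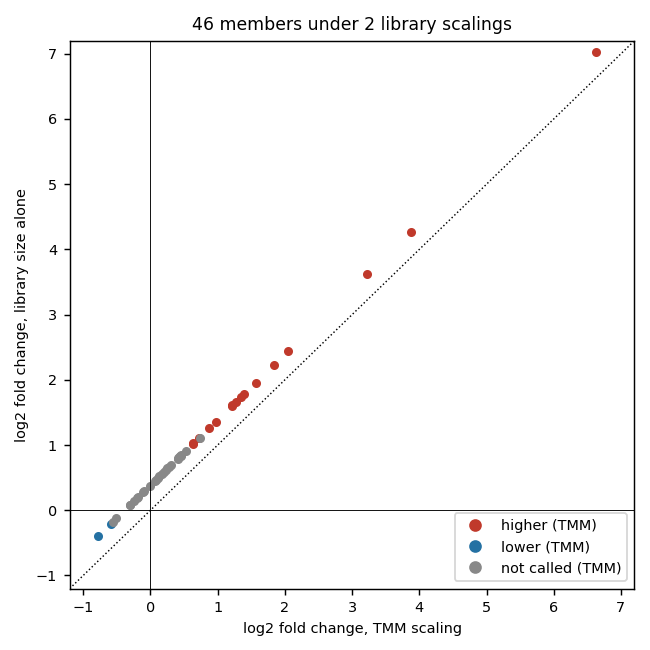
Log2 fold change of the 46 genes with TMM scaling (x axis) and with library size alone (y axis), coloured by the call with TMM. All points lie above the dotted line of equality by a similar distance, and the 2 blue genes stay below 0 on both axes.

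The TGF-beta ligands all rose. Levels of single genes are given as CPM, that is counts scaled to library size and TMM factor. Tgfb1, the ligand made by most cell types, stood at 23.9, 17.0 and 19.1 CPM in controls and rose to 45.6, 52.5 and 54.3 CPM with treatment. Its log2 fold change was 1.35 ± 0.15 (SE, n = 3 and 3, adjusted p = 5.3e-05 by edgeR). Every day-21 mouse lay above every day-0 mouse, as it did for the other two ligands. Tgfb2, an isoform with roles in heart and kidney development, rose from 1.30, 1.56 and 0.93 CPM to 7.98, 15.8 and 12.4 CPM. The log2 fold change of Tgfb2 was 3.23 ± 0.33 (adjusted p = 3.4e-05), a 9.38-fold difference from counts of 9 to 19 per control mouse. Tgfb3 rose from 3.8, 3.04 and 3.6 CPM to 6.56, 9.11 and 9.54 CPM, with a log2 fold change of 1.28 ± 0.24 (adjusted p = 0.0016). Reads of Tgfb3 are uncertain in part, since 12.4% of its exon bases also lie in the predicted genes Gm37804 and Gm48008 on the other strand and the strand setting of the counting is not given in the sources used here. Gm37804 itself rose from 5, 2 and 5 counts to 17, 28 and 21 counts.

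The mix of TGF-beta isoforms differed between the groups without overlap, beside the rise in each of them. Per kilobase of exon (RPKM), the 3 ligands summed to 5.22 ± 0.79 (SD, n = 3) on day 0 and 14.6 ± 1.98 on day 21. Tgfb1 made up 75.9% ± 1.81 of that sum on day 0 and 69.1% ± 3.73 on day 21. Tgfb2 went from 4.27% ± 1.46 to 14.0% ± 3.05 and Tgfb3 from 19.8% ± 1.38 to 16.9% ± 1.12. The groups did not overlap for any of the 3 shares, and each gave p = 0.1 in a two-sided exact permutation test, the smallest that 3 against 3 mice allow. Tgfb1 was the most abundant isoform in each of the 6 mice. Summed fibroblast markers ran from 148 to 253 CPM on day 0 and from 821 to 1603 on day 21, and summed macrophage markers from 131 to 168 and from 674 to 808 CPM. Their part in the ligand levels was not tested.

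Among proteins that hold latent TGF-beta or sit in the matrix, 3 of 5 rose. Ltbp2, a fibrillin-binding matrix protein of the latent TGF-beta binding family, was close to absent in controls at 4, 3 and 2 counts and reached 277, 660 and 460 counts with treatment. In CPM these were 0.40, 0.25 and 0.21 against 19.6, 39.3 and 28.1. The log2 fold change was 6.64 ± 0.39 (adjusted p = 1.9e-06), and its size rests on the few control counts. Ltbp3, which binds latent TGF-beta for secretion, rose from 38.2, 40.6 and 31.9 CPM to 70.6, 96.2 and 90.7 CPM, by 1.22 ± 0.15 on the log2 scale (adjusted p = 9.1e-05). Tgfbi, a matrix protein induced by TGF-beta, rose from 24.2, 24.9 and 18.9 CPM to 87.6, 73.7 and 83.2 CPM, by 1.84 ± 0.14 (adjusted p = 5.1e-06). The groups were apart for all of these. Ltbp1 (0.23 ± 0.29, adjusted p = 0.54) and Ltbp4 (-0.25 ± 0.13, adjusted p = 0.15), the other latent TGF-beta binding proteins, were not called. Ltbp1 varied among controls at 20.3, 14.2 and 37.5 CPM, and without day-0 mouse 3 its log2 fold change was 0.69 (adjusted p = 0.015) and past both limits.

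The signalling receptors of TGF-beta rose and a co-receptor fell. Tgfbr2, the type II receptor that binds ligand first, went from 139, 103 and 116 CPM to 251, 216 and 236 CPM, by 0.98 ± 0.13 on the log2 scale (adjusted p = 0.0002). Tgfbr1, the type I receptor that phosphorylates SMAD2 and SMAD3, went from 74.5, 53.7 and 86.6 CPM to 118, 122 and 113 CPM, by 0.72 ± 0.16 (adjusted p = 0.0042). Both had groups that did not overlap, though without day-0 mouse 2 Tgfbr1 came to 0.55 and fell short of the fold limit. Tgfbr3, or betaglycan, which presents ligand to the signalling receptors, went the other way, from 40.9, 36.0 and 41.7 CPM to 29.7, 22.0 and 27.2 CPM. Its log2 fold change of -0.59 ± 0.14 (adjusted p = 0.0063) is a 1.5-fold decrease at the edge of the limit, and it kept its call in 8 of 15 alternatives. It lost the call without day-0 mouse 1 (-0.58), without day-0 mouse 3 (-0.57) and without day-21 mouse 2 (-0.47). Eng and Acvrl1, receptors for BMP9 that are high in endothelium, were not called at 0.11 ± 0.15 and 0.30 ± 0.13. The 7 endothelial markers summed to 492 to 564 CPM on day 0 and 235 to 400.2 CPM on day 21, and their part in these values was not tested.

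**Figure D3:**
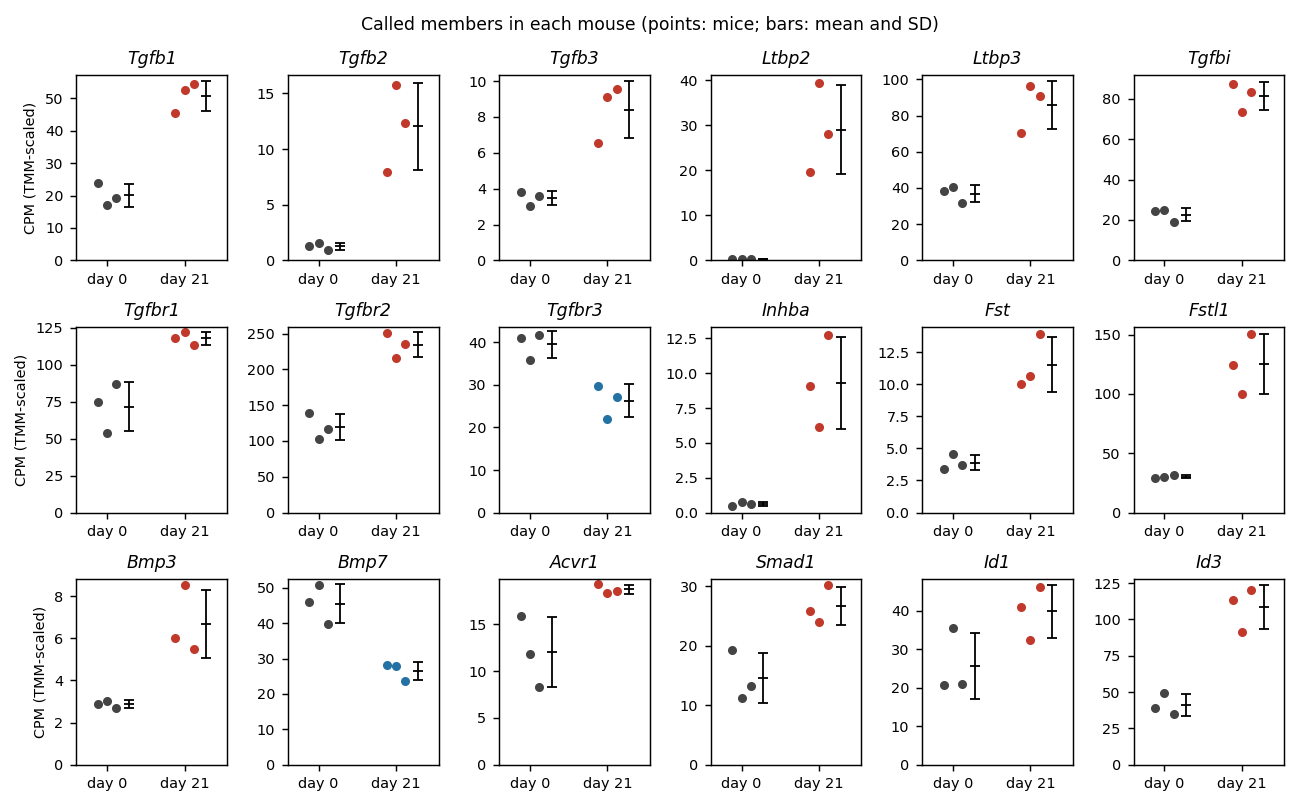
TMM-scaled CPM (y axis, from 0) in each day-0 and day-21 mouse for the 18 called genes, with the mean and SD of each group as bars beside the points. Groups are apart in every panel except Id1, where day-0 mouse 2 lies above day-21 mouse 2.

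Of the activin subunits, Inhba was called and Inhbb was not. The difference between their fold changes was not tested, only the share given below. Inhba, which encodes the subunit of activin A, went from 0.50, 0.74 and 0.62 CPM (5, 9 and 6 counts) to 9.11, 6.14 and 12.7 CPM. The log2 fold change was 3.88 ± 0.38 (adjusted p = 2.5e-05), next to Ltbp2 the largest among the members, and the groups lay far apart. Inhbb, which encodes the subunit of activin B, measured 27.7, 6.75 and 7.41 CPM on day 0 and 18.7, 15.1 and 26.1 CPM on day 21. The control with the high value was day-0 mouse 1, and the log2 fold change of 0.53 ± 0.46 was not called (adjusted p = 0.38). Without that mouse it was 1.48 (adjusted p = 7.8e-04). Inhba made up 4.42% ± 2.9 (SD, n = 3) of the summed per-kilobase level of both subunits on day 0 and 23.4% ± 1.86 on day 21, with groups apart and p = 0.1 in the exact permutation test. Inhbb was the more abundant subunit in all 6 mice.

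Follistatin binds and neutralises activins, and 2 of the 3 follistatin and follistatin-like genes rose. Fst, the follistatin gene, went from 3.40, 4.53 and 3.70 CPM to 10, 10.6 and 13.9 CPM, by 1.56 ± 0.22 on the log2 scale (adjusted p = 0.00029). Fstl1, a secreted follistatin-like glycoprotein that also binds TGF-beta family ligands, went from 29.2, 30.0 and 31.4 CPM to 125, 100.1 and 151 CPM, by 2.05 ± 0.15 (adjusted p = 5.2e-06). Fstl3 was not called at 0.42 ± 0.22 (adjusted p = 0.15), and its reads are uncertain because 47.3% of its exon bases overlap Prss57 on the other strand. None of the activin receptors Acvr1b (-0.11 ± 0.10), Acvr2a (-0.19 ± 0.19) and Acvr2b (-0.51 ± 0.26) was called.

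BMP ligands moved in both directions. Bmp7 fell from 46.1, 50.9 and 39.7 CPM to 28.1, 27.8 and 23.6 CPM, and the groups did not overlap. Its log2 fold change was -0.78 ± 0.13 (adjusted p = 0.0009), a 1.72-fold decrease. With library size alone the value was -0.39 and was not called, a scaling in which the median of all genes was 0.42. Proximal tubule markers summed to 8832 to 9845 CPM on day 0 and 1679.8 to 2065 CPM on day 21, and podocyte markers to 399.8 to 639 and 307 to 359 CPM. The sums were 5302 to 6614 and 3528 to 3970 CPM for thick ascending limb and 491 to 824 and 289 to 371 for distal convoluted tubule. They were 553 to 678 and 373 to 465 CPM for principal cells and 176 to 292 and 82.3 to 103 for intercalated cells. The part of these cell types in the Bmp7 level was not tested. Bmp3, a BMP that opposes other BMPs, rose from 2.9, 3.04 and 2.68 CPM to 6.00, 8.52 and 5.50 CPM, by 1.21 ± 0.26 (adjusted p = 0.0037). Bmp2 (0.41 ± 0.34), Bmp4 (-0.30 ± 0.13) and Bmp6 (-0.01 ± 0.22), ligands that signal through SMAD1, SMAD5 and SMAD9, were not called. Bmp6, an iron-regulatory BMP, ranged from 88.0 to 172 CPM in controls and from 108 to 137 CPM on day 21.

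The summed level of the 5 BMP ligands per kilobase was 62.4 ± 10.6 RPKM on day 0 and 54.5 ± 3.92 on day 21 (exact permutation p = 0.3). Bmp6 was the largest part in every mouse, at 48.9% ± 9.35 and 56.6% ± 3.03 (p = 0.3 by the same exact test). Bmp7 made up 18.4% ± 3.31 on day 0 and 12.1% ± 0.91 on day 21, with groups apart, and Bmp4 31.0% ± 7.32 and 28.2% ± 3.54 (exact p = 0.1 and 0.7). Bmp3 stayed a small part at 0.63% ± 0.10 and 1.66% ± 0.45 although it rose.

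**Figure D4:**
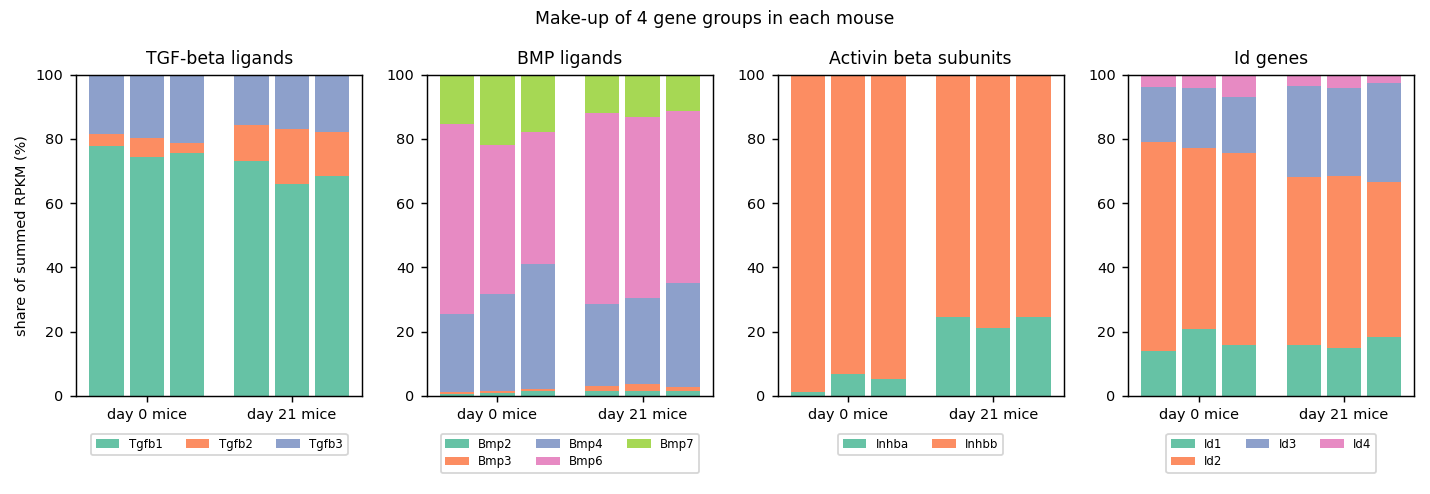
Share of each gene (y axis, percent of summed RPKM) in the TGF-beta ligands, BMP ligands, activin beta subunits and Id genes, one bar per mouse. Tgfb2, Inhba and Id3 take larger shares in the 3 day-21 mice than in the 3 day-0 mice, and Bmp7 and Id2 smaller ones.

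Of the BMP receptors 1 of 4 was called, beside 19.6% of all genes called higher and 15.5% lower. Acvr1, a type I BMP receptor also known as ALK2, went from 15.8, 11.9 and 8.34 CPM to 19.3, 18.3 and 18.5 CPM, by 0.64 ± 0.21 on the log2 scale (adjusted p = 0.030). The groups were apart, but the call was kept in only 10 of 15 alternatives: without day-0 mouse 2 or 3, or without any of the day-21 mice, the adjusted p was between 0.064 and 0.078. Bmpr1a (0.08 ± 0.13), Bmpr1b (0.07 ± 0.19) and Bmpr2 (-0.30 ± 0.14) were not called. Nor were the secreted BMP antagonists Grem1 (0.73 ± 0.63), Nog (-0.56 ± 0.43) and Chrd (0.13 ± 0.24), or Bambi (-0.20 ± 0.24), a pseudoreceptor without kinase activity. Grem1 measured 3.8, 0.33 and 1.03 CPM on day 0 and 3.32, 2.74 and 2.39 CPM on day 21, and without day-0 mouse 1 its log2 fold change was 2.07 (adjusted p = 0.0090).

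**Figure D5:**
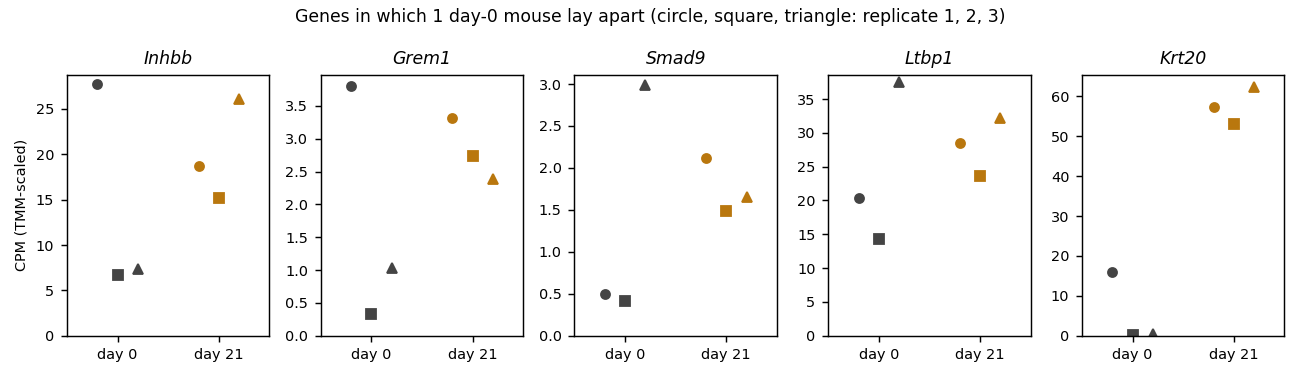
TMM-scaled CPM (y axis) in each mouse for Inhbb, Grem1, Smad9 and Ltbp1 and for the injury marker Krt20, with a symbol for each replicate number. Day-0 mouse 1 is the high control for Inhbb, Grem1 and Krt20, and day-0 mouse 3 for Smad9 and Ltbp1.

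Among the SMAD genes 1 of 8 was called, beside the same shares of all genes. The called gene was Smad1, which carries BMP signals, rising from 19.3, 11.3 and 13.2 CPM to 25.9, 24.1 and 30.3 CPM, by 0.88 ± 0.20 on the log2 scale (adjusted p = 0.0048). Smad2, which carries TGF-beta and activin signals, passed the test at a smaller fold (0.44 ± 0.11, adjusted p = 0.0065). Smad3 (0.27 ± 0.11), Smad4 (-0.09 ± 0.11) and Smad5 (0.17 ± 0.10) did not pass it. The inhibitory SMADs, Smad6 (0.41 ± 0.26) and Smad7 (0.25 ± 0.17), which feed back on the pathway, were not called either. Smad9 was at 5, 5 and 29 counts in controls and at 30, 25 and 27 in treated mice. In CPM, day-0 mouse 3 stood at 2.98, above the treated mice at 2.12, 1.49 and 1.65. The log2 fold change of Smad9, 0.46 ± 0.64, became 1.91 (adjusted p = 0.014) without day-0 mouse 3.

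Id genes encode helix-loop-helix proteins that bind other such factors and keep them off DNA, and they are known direct targets of BMP-activated SMADs. Id3 rose from 39.1, 49.3 and 35.1 CPM to 113, 91.6 and 120.5 CPM, by 1.39 ± 0.15 on the log2 scale (adjusted p = 5.2e-05), with groups apart. Id1 went from 20.6, 35.6 and 20.9 CPM to 40.9, 32.5 and 46.2 CPM, and the groups overlapped. Its log2 fold change of 0.63 ± 0.22 was called (adjusted p = 0.038), but with RLE scaling the adjusted p was 0.050 and without day-0 mouse 1 or 3 or day-21 mouse 1 or 3 it was 0.12, 0.13, 0.087 and 0.13. Id2 passed the test at a fold under the limit (0.46 ± 0.12, adjusted p = 0.011), from 203, 201 and 164 CPM to 282, 243 and 257 CPM, and Id4 did not pass it (0.21 ± 0.19). The 4 genes summed to 129 ± 17.0 RPKM on day 0 and 209 ± 19.4 on day 21. Id2 made up 60.3% ± 4.58 of the sum on day 0 and 51.2% ± 2.67 on day 21, and Id3 17.7% ± 0.89 and 28.9% ± 1.75, with groups apart for both (exact permutation p = 0.1).

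Genes of the same pathways outside the 46 were taken as lists, also chosen with earlier results of these data known. Their counts are descriptions, given beside the 19.6% of all genes called higher, the 15.5% called lower and the median log2 fold change of 0.03. Of 12 TGF-beta response genes tested, 11 (91.7%) were called higher and none lower, with a median of 2.47. Timp1, an inhibitor of matrix proteases, and the fibrillar collagen genes Col1a1 and Col3a1 had log2 fold changes of 6.18 ± 0.28, 4.35 ± 0.27 and 4.03 ± 0.42. Timp1 had 9, 6 and 2 counts in controls and was tested through its day-21 counts. Ccn2, a matricellular protein that is also a common readout of TGF-beta, was not called at 0.31 ± 0.22 and is named, after its value was seen, as the remaining gene of the list. This list shares Col1a1 and Col3a1 with the fibroblast markers and Acta2 and Tagln with the smooth muscle markers. Acta2, also named after its value was seen, was called at 0.60 ± 0.21 (adjusted p = 0.04 by edgeR), just past the fold limit. The groups overlapped for Acta2, and it kept its call in 7 of 15 alternatives. Of the BMP response genes only 3 were tested, and Runx2 (1.33 ± 0.31) and Atoh8 (1.00 ± 0.36) were called higher, Atoh8 in 10 of 15 alternatives.

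Latent TGF-beta activation and storage had 5 of 10 genes tested (50.0%) called higher and 2 (20.0%) lower, with a median of 0.84. The microfibril genes Fbn1 (2.69 ± 0.30) and Fbn2 and the membrane protease Mmp14 (3.68 ± 0.15) were among those higher. Fbn2 was nearly uncounted in controls, at 0, 0 and 1, too few for a fold, and reached 98, 163 and 145 counts. It was tested through day 21 alone. Of 23 other ligands of the superfamily listed, 8 had enough counts to be tested. Of these, 5 (62.5%) were called higher and none lower (median 0.98), with Gdf15 at 3.16 ± 0.21, Gdf11 at 1.19 ± 0.19 and Bmp8b at 0.77 ± 0.26. The remaining calls were Lefty1 (2, 6 and 4 counts on day 0, 19, 16 and 27 on day 21) and Inha (0, 1 and 3, then 15, 30 and 29). Both were tested through their day-21 counts alone and could hardly be called lower, which limits the reading of that share. The extracellular BMP modulators had 4 of 11 (36.4%) called higher and 2 (18.2%) lower, with a median of -0.03. Those higher included the protease Bmp1 (2.67 ± 0.18) and the antagonists Nbl1 (2.07 ± 0.17) and Sostdc1 (0.80 ± 0.16). The remaining higher call was Bmper (3, 6 and 1 counts on day 0, 14, 13 and 16 on day 21). Bmper was tested through its day-21 counts alone, could hardly be called lower, and kept its call in 5 of 14 alternatives. Of 16 intracellular SMAD regulators, 4 (25.0%) were called higher and 1 (6.25%) lower with a median of 0.08, and the share called higher lay near the background. Pmepa1 (1.36 ± 0.13), Tgif2 (1.36 ± 0.24) and Smurf1 (0.82 ± 0.12) had the largest changes among them. Genes called lower in these lists included, named after their values were seen, Itgb8 (-1.24 ± 0.20) and Furin (-0.64 ± 0.11) in latent TGF-beta activation, Chrdl1 (-1.71 ± 0.45), whose groups overlapped, among the BMP modulators, and Smurf2 (-0.61 ± 0.11) among the SMAD regulators. Smurf2 kept its call in 11 of 15 alternatives and Furin in 13. Of 2 other receptors and co-receptors tested, the BMP co-receptor Rgma was called higher at 1.27 ± 0.25.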

How the data were processed

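Kidney RNA was measured in 3 day-0 and 3 day-21 mice. The authors deposited raw counts per gene, not normalized, with each mouse separate. The submitters' processing notes name TopHat and mm10. The counting program and strand setting are not given in the sources used here. Gene identifiers were matched to GENCODE M21 on GRCm38, with all 55450 matched. No column was left unmapped.

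Counts were fitted in edgeR 4.0.16 (R 4.3.3) with TMM scaling and filterByExpr (minimum count 10, minimum total 15), and tested by quasi-likelihood, with p-values adjusted by Benjamini-Hochberg across 16592 genes. The SE of a log2 fold change was taken as its absolute value divided by the square root of the quasi-likelihood F statistic. Alternatives used DESeq2 1.42.0, limma-voom (limma 3.58.1), other scalings and filters, a replicate block and each mouse left out. Shares used RPKM over all exon bases and a two-sided exact permutation test in scipy 1.17.1. Scripts were tested on simulated data. Genes were named where called with a mean of at least 20 counts, or in a share, and outside the members as at most 3 called genes a list, by size of change among those with that mean and groups that do not overlap. Ccn2, Acta2, Bmper and the genes given as lower in these lists were named after their values were seen. Members and lists were chosen with earlier results of these data known, and the roles were assigned after the files were in hand. No pair of mice was a duplicate (chi-square per gene 6.78 to 23.6). Totals of 10963849 to 14333311 counts limit genes with few counts, such as Ltbp2 on day 0.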

Additional observations from a re-analysis of the deposited data

How the results depend on the processing

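Of the 18 called genes, 13 kept their call in all 15 alternatives, and the others were Acvr1, Id1, Tgfbr3, Bmp7 and Tgfbr1. The number called higher ran from 11 (adjusted p under 0.01 and fold over 2) to 24 (library size alone), and from 14 to 17 without 1 mouse. The number called lower was 1 with upper quartile scaling, no filter or a mean of at least 50 counts, 0 with library size alone or the stricter threshold, and 1 to 2 without 1 mouse. With the replicate block it was 16 higher and 2 lower. Mice of the same number correlated at -0.02, 0.17 and 0.09 in their deviations, and day-0 mouse 1 correlated best with day-21 mouse 2, so the numbers were not taken as pairs. The median over members was 0.50 with upper quartile scaling, 0.80 with library size alone and 0.24 to 0.38 without 1 mouse. The difference in the Inhba share was 19.0 percentage points per kilobase and 25.0 from raw counts, and the receptor list had 2 called with library size alone.

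Signs turned in members that were not called. With library size alone the log2 values were 0.14 for Ltbp4, 0.28 for Acvr1b, 0.20 for Acvr2a, 0.0845 for Bmp4, 0.38 for Bmp6, 0.0882 for Bmpr2, 0.29 for Smad4 and 0.19 for Bambi, a scaling in which the median of all genes was 0.42. Bmp6 was also 0.0811 with the upper quartile, 0.0194 with a mean of at least 50 counts, 0.0436 with limma-voom and 0.0424 with the replicate block. Without 1 mouse, the values ran from -0.0414 to 0.69 for Ltbp1, -0.39 to 0.0089 for Acvr2a, -0.0263 to 0.22 for Eng, -0.21 to 0.30 for Bmp6, -0.0458 to 0.15 for Bmpr1a, -0.0662 to 0.25 for Bmpr1b and -0.32 to 0.0214 for Bambi. The cause was not tested.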
